A study of Homo sapiens with 12 samples.

Results

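A set of 9 genes of pericellular proteolysis was followed in Sk-hep1 cells kept in high-fat medium (HFM) or growth medium (GM). They are PLAU, PLAUR, PLAT and SERPINE2 of the plasminogen system, the matrix metalloproteinases MMP1, MMP2 and MMP14, and the metalloproteinase inhibitors TIMP1 and TIMP3. They were chosen by symbol as 9 of the 19775 genes that had a probe set annotated to 1 gene. They hold 21 probe sets, and each gene was read from the probe set with the highest mean over the 12 arrays. A floor of log2 4 on at least 3 arrays was passed by 8 of the 9 genes, and 13130 genes in all were tested.

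Sk-hep1 is an established human cell line that the labels place in liver and ascites and call an endothelial adenocarcinoma. The cells were grown in DMEM with 10% fetal bovine serum and then kept in HFM or GM for 24 or 12 hours, which gave 4 groups of 3 arrays: HFM for 24 hours, GM for 24 hours, HFM for 12 hours and GM for 12 hours. HFM was based on DMEM/F12 and GM on DMEM, so fat and basal medium changed together and cannot be told apart, and the fat content of HFM was not stated in the labels. Nothing in the labels ties the replicates of a group to separate cultures, and the p-values therefore describe the spread among these arrays, which may be technical. Total RNA was labelled as biotinylated cRNA and hybridised to Affymetrix arrays of 54675 probe sets, whose deposited values are log2 levels.

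The plasminogen system turns the circulating zymogen plasminogen into plasmin, a broad serine protease that dissolves fibrin and cleaves matrix proteins. The activators encoded by PLAU (urokinase) and PLAT (tissue-type activator) make the cut, the receptor encoded by PLAUR holds urokinase at the cell surface, and serpins such as the one encoded by SERPINE2 (protease nexin-1) trap the activators. Plasmin and the membrane-bound metalloproteinase encoded by MMP14 can in turn activate other matrix metalloproteinases, and tissue inhibitors of metalloproteinases (TIMPs) bind and block the active enzymes.

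The sequence just upstream of the transcription start is shown for 4 genes, an activator (PLAU), its receptor (PLAUR), a metalloproteinase (MMP14) and an inhibitor (TIMP3), picked with their values known. SERPINE2 and TIMP1 also had windows, which were searched but are not printed. Of the 9 genes, 6 had an entry in the RefSeq promoter table (build GRCh38.p14), with 8 start sites, and 250 bases before the start were searched on both strands for TGANTCA (the AP-1 motif), GGGCGG (the GC box), CCAAT and TATAAA. Matches are in capitals in the lines below, and lower-case stretches hold none of these motifs. The windows are chr10:73910882-73911131 on the plus strand for the second PLAU start, chr19:43670170-43670419 on the minus strand for PLAUR, chr14:22836335-22836584 on the plus strand for MMP14 and chr22:32801455-32801704 on the plus strand for TIMP3.
PLAU: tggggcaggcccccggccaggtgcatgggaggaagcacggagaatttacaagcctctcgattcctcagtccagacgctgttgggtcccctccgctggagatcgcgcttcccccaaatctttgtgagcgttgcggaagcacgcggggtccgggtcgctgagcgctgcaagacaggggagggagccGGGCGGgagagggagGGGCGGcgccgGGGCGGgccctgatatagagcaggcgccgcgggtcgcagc
PLAUR: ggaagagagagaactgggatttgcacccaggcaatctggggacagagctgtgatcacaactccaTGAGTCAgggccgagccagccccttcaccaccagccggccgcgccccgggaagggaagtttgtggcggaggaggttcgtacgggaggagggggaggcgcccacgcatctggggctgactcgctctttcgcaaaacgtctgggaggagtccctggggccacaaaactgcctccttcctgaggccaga
MMP14: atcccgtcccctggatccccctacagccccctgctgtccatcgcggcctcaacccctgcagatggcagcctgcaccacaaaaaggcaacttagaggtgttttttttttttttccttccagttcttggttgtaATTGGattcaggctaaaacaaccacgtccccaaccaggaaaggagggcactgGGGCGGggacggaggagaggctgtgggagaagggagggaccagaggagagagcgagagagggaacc
TIMP3: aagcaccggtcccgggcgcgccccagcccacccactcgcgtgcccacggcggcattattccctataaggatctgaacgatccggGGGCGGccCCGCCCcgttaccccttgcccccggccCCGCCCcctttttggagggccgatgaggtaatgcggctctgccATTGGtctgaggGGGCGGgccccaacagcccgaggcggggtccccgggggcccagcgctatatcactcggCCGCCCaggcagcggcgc
The PLAUR window held TGAGTCA beginning 186 bases before the start, and no other window of the 6 genes held the AP-1 motif, which occurs in 6.57% of the 35116 RefSeq windows of this length. The second PLAU start had 3 GC boxes, at 66, 51 and 40 bases before the start, and the TIMP3 window had 5. The MMP14 window had 1 GC box and 1 CCAAT motif on the other strand. A CCAAT motif on the other strand lay in the TIMP3 window too. Among the windows not printed, CCAAT matched at the first PLAU start (1 match) and the first SERPINE2 start (7 matches over both strands). GC boxes were present in 42.6% of all windows, CCAAT in 32% and TATAAA in 10.7%. No matches overlapped one another, and TATAAA was found in none of the 8 windows.

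The arrays showed differences that bear on the values below. The median of each array lay between 4.05 and 4.09 log2 units. The level of the 3' probe set over the 5' probe set of ACTB, which rises as RNA is degraded from its 5' end, stood at 1.58 ± 0.06 (SD, n = 3) in HFM and 1.07 ± 0.05 in GM at 24 hours, against 0.84 ± 0.13 in HFM and 0.89 ± 0.03 in GM at 12 hours, on the log2 scale. The spiked hybridisation controls split the arrays into a class of 4 with high levels (10.83 to 10.90, the 3 GM arrays at 12 hours and HFM replicate 1 at 12 hours) and a class of 8 with low levels (10.52 to 10.72). Of 14 endothelial markers, 7 passed the floor, with mean log2 levels of 6.75 for EGFL7, 6.71 for ROBO4, 4.97 for FLT1, 4.47 for NOS3, 4.28 for ICAM2, 4.19 for PECAM1 and 4.08 for ESAM. The other 7, CDH5, KDR, TEK, TIE1, VWF, CLEC14A and ERG, did not (at most 3.69 on any array), so the list was met in part only. The mean log2 level of those 14 markers ran from 3.73 to 3.88 in HFM and 3.86 to 3.89 in GM at 24 hours, and from 3.79 to 3.81 in HFM and 4.15 to 4.21 in GM at 12 hours. Of the markers tested, 3 of 7 endothelial, 4 of 6 epithelial and 2 of 3 leukocyte markers were called lower in HFM at 24 hours, and 5, 5 and 3 at 12 hours, with none higher, where 37.5% of all genes were lower at 24 hours and 33.0% at 12 hours. Some tested markers had arrays on both sides of the floor of log2 4: NOS3 (3.69 to 5.28), ICAM2 (3.87 to 4.99), PECAM1 (3.79 to 4.56), ESAM (3.79 to 4.30) and CORO1A (3.90 to 5.79). The endothelial and leukocyte counts thus rest in part on signals near the floor. Of 5 hepatocyte markers 2 were higher and 1 lower at 24 hours and 1 each way at 12 hours, and of 7 mesenchymal markers 1 was higher and 1 lower at 24 hours and 1 higher and 2 lower at 12 hours. Of the epithelial markers the keratins KRT18 (13.5 on average), KRT8 (12.3), KRT19 (11.2) and KRT7 (9.95) were well above the floor, as were SPINT2 (5.82) and ELF3 (4.91), while EPCAM (2.64), CDH1 (2.62), ESRP1 (2.69) and CLDN4 (3.79) did not pass it. Of the mesenchymal markers VIM (13.6) was highest, and LUM (2.54), FAP (3.55) and COL1A2 (3.73) did not pass. The part of RNA integrity, array class or other cell types in the results was not tested, and in bulk RNA fewer cells of a type cannot be told from less RNA per cell.

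The first question was how the media differed at 24 hours. After 24 hours 5 of the 8 tested genes were higher in HFM than in GM (PLAUR, PLAT, SERPINE2, MMP14 and TIMP3), 1 was lower (MMP1) and 2 did not pass the test (PLAU and TIMP1). MMP14 and PLAT changed most, by 2.23-fold and 2.05-fold. The test was limma's moderated test with Benjamini-Hochberg adjustment over all 13130 genes, called at an adjusted p under 0.05. At this time 58.1% of all genes were called, 20.6% higher and 37.5% lower in HFM, and 7.49% were called with a change of at least 2-fold. The median log2 difference (HFM minus GM) was 0.36 over the 8 genes and -0.08 over all genes tested. Arrays of HFM and GM did not overlap for 7 of the 8 genes, as for 68.7% of all genes.

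After 12 hours the picture differed. SERPINE2 was higher in HFM than in GM, PLAU, PLAUR, PLAT and TIMP3 were lower, and MMP1, MMP14 and TIMP1 did not pass the test. In all, 61.9% of genes were called at this time, 28.9% higher and 33.0% lower in HFM. The median log2 difference was -0.28 over the 8 genes and -0.07 over all genes. None of the 8 reached 2-fold, which 2.18% of all genes did with a call. The arrays of the media did not overlap for 5 of the 8 genes, as for 63.6% of all genes.

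The medium difference itself was compared between the times, as the HFM-minus-GM difference at 24 hours minus that at 12 hours. It was called and positive for 7 of the 8 genes, all except MMP1, with a median of 0.80 over the 8 genes and -0.04 over all genes, and for 2 of them (PLAT 3.37-fold and MMP14 2.36-fold) it reached 2-fold, as called for 7.96% of all genes. Among all genes 52.8% were called for this comparison, 19.4% positive and 33.4% negative. The differences at 24 hours and at 12 hours came from different arrays, but their tests shared an estimate of the spread from all 12 arrays.

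**Figure D1:**
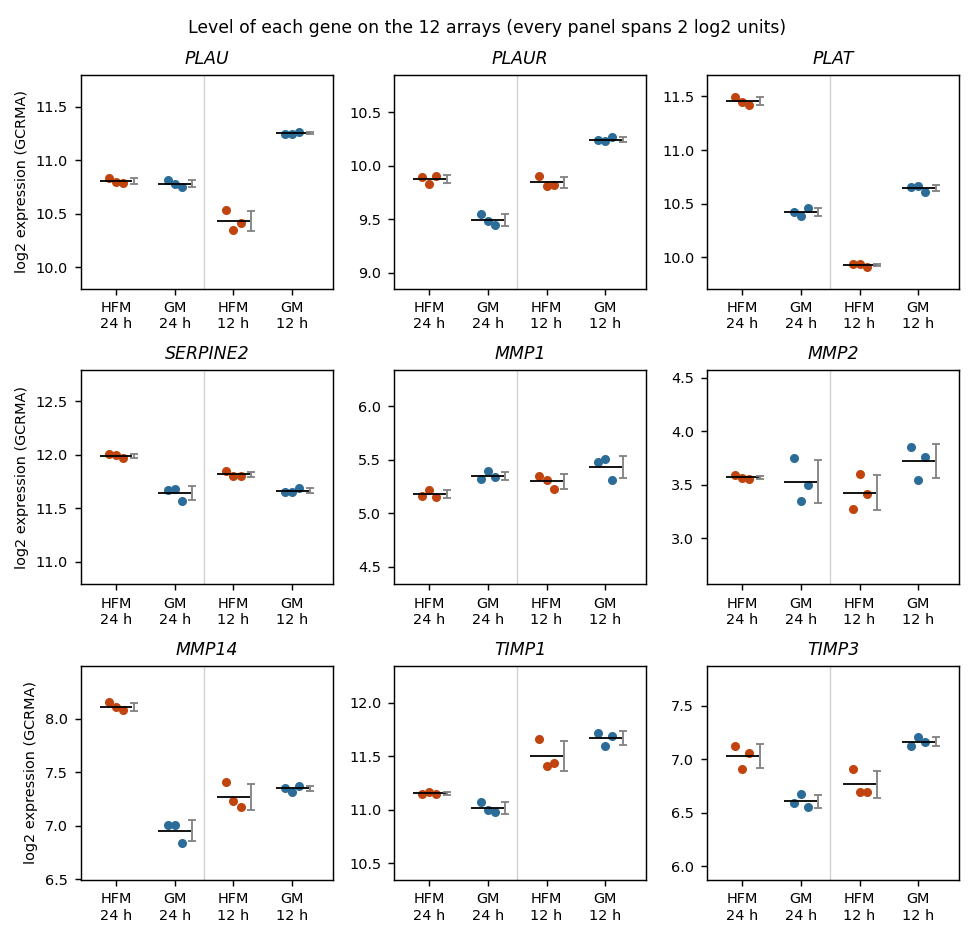
Log2 level (GCRMA) of the 9 genes on the 12 arrays, with HFM and GM at 24 hours on the left of each panel and at 12 hours on the right. Points are arrays, black lines are group means and grey bars are SD (n = 3). PLAT and MMP14 were highest in HFM at 24 hours, while PLAU, PLAUR and TIMP3 were highest in GM at 12 hours.

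PLAU encodes urokinase, the activator associated with cell surfaces and migration. At 24 hours the log2 level of PLAU was 10.83, 10.80 and 10.78 in HFM, against 10.81, 10.78 and 10.76 in GM. The 12-hour values were 10.54, 10.35 and 10.42 in HFM, against 11.25, 11.25 and 11.27 in GM. The media overlapped at 24 hours, and at 12 hours every HFM array was below every GM array. The HFM-minus-GM difference in log2 level was 0.02 ± 0.05 (SE, n = 3 per group) at 24 hours (adjusted p = 0.74), and at 12 hours PLAU fell by 0.82 ± 0.05 in HFM relative to GM (1.76-fold lower, adjusted p = 2.7e-07). The difference between the times was 0.84 ± 0.08 (adjusted p = 2.8e-06). From low to high, the groups ran HFM at 12 hours, GM at 24 hours, HFM at 24 hours and GM at 12 hours, and the groups in the middle did not differ beyond their spread. The second PLAU probe set was 0.74 lower in HFM at 12 hours as well, and at 24 hours it was 0.18 lower (adjusted p = 0.037), where the main probe set was not called.

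PLAT encodes the tissue-type activator, best known for dissolving clots in vessels. The PLAT arrays at 24 hours had log2 levels of 11.50, 11.45 and 11.43 in HFM, against 10.42, 10.38 and 10.46 in GM. At 12 hours the values were 9.93, 9.94 and 9.91 in HFM, against 10.65, 10.66 and 10.61 in GM. All 4 groups were free of overlap, with HFM the highest group at 24 hours and the lowest at 12 hours. PLAT rose by 1.04 ± 0.04 on the log2 scale in HFM relative to GM at 24 hours (2.05-fold, adjusted p = 3.5e-09), and fell by 0.72 ± 0.04 at 12 hours (1.64-fold lower, adjusted p = 2.1e-07). The difference between the times, 1.75 ± 0.06, was the largest of the 8 genes (adjusted p = 6.3e-09). PLAT was read by 1 probe set, so no second probe set checks it.

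PLAUR encodes the urokinase receptor, a surface protein held in the membrane by a lipid anchor. At 24 hours its log2 level was 9.89, 9.83 and 9.90 in HFM, against 9.55, 9.49 and 9.44 in GM. After 12 hours the levels were 9.91, 9.81 and 9.82 in HFM, against 10.24, 10.23 and 10.27 in GM. The HFM arrays stayed within a narrow band at both times, and the GM arrays lay below them at 24 hours and above them at 12 hours. The log2 difference was 0.38 ± 0.05 at 24 hours (1.30-fold higher in HFM, adjusted p = 3.2e-05) and -0.40 ± 0.05 at 12 hours (1.32-fold lower, adjusted p = 3.3e-05), and the times differed by 0.78 ± 0.07 (adjusted p = 2.8e-06). The 3 PLAUR probe sets were called lower in HFM at 12 hours (-0.40, -0.41 and -0.28), and 2 of them were called higher at 24 hours (0.38 and 0.42). The third, which unlike the others is not of a type marked as matching several transcripts, differed by 0.03 at 24 hours (adjusted p = 0.66), and its difference between the times was 0.31 (adjusted p = 0.0062).

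SERPINE2 encodes protease nexin-1, a serpin that inhibits thrombin, urokinase and the tissue-type activator. SERPINE2 had log2 levels at 24 hours of 12.01, 12.00 and 11.96 in HFM, against 11.67, 11.68 and 11.57 in GM. Those at 12 hours were 11.85, 11.80 and 11.81 in HFM, against 11.65, 11.65 and 11.69 in GM. Every HFM array was above every GM array at both times. The log2 difference was 0.35 ± 0.05 at 24 hours (1.27-fold, adjusted p = 4.8e-05) and 0.16 ± 0.05 at 12 hours (1.11-fold, adjusted p = 0.014), and none of the other 7 tested genes was called higher in HFM at both times. The difference between the times was 0.19 ± 0.07 (adjusted p = 0.030), and this call was lost when any 1 of 8 arrays was left out (0.16 to 0.20, adjusted p between 0.051 and 0.074), namely each GM array and HFM replicates 2 and 3 at 12 hours, GM replicate 3 at 24 hours and HFM replicates 1 and 2 at 24 hours. The call was lost with a term for the class of hybridisation controls as well (0.16, adjusted p = 0.0505). The 12-hour call ended when only the arrays of the compared groups were fitted (adjusted p = 0.056). A second SERPINE2 probe set averaged 3.48 and stayed below the floor, and the mean of both was called at neither time (0.13 at 24 hours and 0.05 at 12 hours).

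MMP14 encodes membrane-type 1 metalloproteinase, a transmembrane collagenase that cleaves pro-MMP2. For MMP14 the log2 level at 24 hours was 8.15, 8.11 and 8.08 in HFM, against 7.01, 7.01 and 6.84 in GM. The level at 12 hours was 7.41, 7.23 and 7.17 in HFM, against 7.36, 7.32 and 7.37 in GM. The HFM arrays at 24 hours were the highest of all 12 and the GM arrays at 24 hours the lowest, while the media overlapped at 12 hours. MMP14 rose by 1.16 ± 0.07 on the log2 scale in HFM relative to GM at 24 hours (2.23-fold, adjusted p = 4.4e-08), the largest difference of the 8 genes at that time. At 12 hours the difference was -0.08 ± 0.07 (adjusted p = 0.33), and it was -0.15 and called (adjusted p = 0.036) without HFM replicate 1. The times differed by 1.24 ± 0.10 (adjusted p = 9.5e-07). All 4 MMP14 probe sets were called higher in HFM at 24 hours (1.16, 1.21, 0.90 and 0.30) and none was called at 12 hours (-0.08 to 0.05).

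MMP1, the gene of interstitial collagenase, was read at a low level. Log2 levels of MMP1 at 24 hours were 5.16, 5.22 and 5.15 in HFM, against 5.32, 5.39 and 5.34 in GM. Levels at 12 hours were 5.35, 5.31 and 5.22 in HFM, against 5.48, 5.50 and 5.31 in GM. The media were apart at 24 hours and overlapped at 12 hours. The log2 difference was -0.17 ± 0.06 at 24 hours (1.12-fold lower in HFM, adjusted p = 0.030) and -0.13 ± 0.06 at 12 hours (adjusted p = 0.073). With every array set to the same median, the 24-hour difference turned to 0.01 (adjusted p = 0.89). The difference between the times was -0.04 ± 0.09 (adjusted p = 0.74). The 24-hour call was lost without GM replicate 2 or 3 or HFM replicate 1 or 3 of that time (-0.18 to -0.15, adjusted p between 0.056 and 0.10). The 12-hour difference was called without GM replicate 3 (-0.19, adjusted p = 0.018) and without HFM replicate 1 (-0.16, adjusted p = 0.035).

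MMP2, the gene of gelatinase A and a substrate of the MMP14 enzyme, stayed below log2 4 on all 12 arrays for all 3 of its probe sets and was not tested. Its brightest probe set read 3.59, 3.57 and 3.56 in HFM and 3.75, 3.35 and 3.50 in GM at 24 hours. At 12 hours it read 3.28, 3.60 and 3.41 in HFM and 3.85, 3.55 and 3.76 in GM. The 2 media overlapped at both times.

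TIMP1 encodes a secreted inhibitor of most matrix metalloproteinases that is a weak inhibitor of the MMP14 enzyme. TIMP1 at 24 hours had log2 levels of 11.15, 11.17 and 11.15 in HFM, against 11.08, 10.99 and 10.98 in GM. Its 12-hour levels were 11.66, 11.41 and 11.43 in HFM, against 11.72, 11.59 and 11.69 in GM. The media were apart at 24 hours and overlapped at 12 hours. Neither difference passed the test: 0.14 ± 0.07 at 24 hours (95% interval -0.01 to 0.29, adjusted p = 0.10) and -0.16 ± 0.07 at 12 hours (95% interval -0.31 to -0.01, adjusted p = 0.054). The change of the difference between the times was called (0.30 ± 0.10, adjusted p = 0.020), but not without GM replicate 1 at 12 hours (0.28, adjusted p = 0.051) or with a term for the array class (0.14, adjusted p = 0.11). Without HFM replicate 1 at 12 hours both medium differences were called, at 0.14 at 24 hours (adjusted p = 0.014) and -0.25 at 12 hours (adjusted p = 0.00098), and without GM replicate 2 the 12-hour difference was -0.20 (adjusted p = 0.047).

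TIMP3 encodes the inhibitor that binds to the matrix itself and also blocks several ADAM proteases. The 24-hour log2 levels of TIMP3 were 7.12, 6.91 and 7.06 in HFM, against 6.59, 6.68 and 6.55 in GM. At 12 hours it was 6.91, 6.69 and 6.69 in HFM, against 7.13, 7.21 and 7.16 in GM. The media did not overlap at either time, with HFM above GM at 24 hours and below it at 12 hours. The log2 difference was 0.43 ± 0.07 at 24 hours (1.34-fold higher, adjusted p = 0.00036) and -0.40 ± 0.07 at 12 hours (1.32-fold lower, adjusted p = 0.00069), and the times differed by 0.82 ± 0.11 (adjusted p = 4.6e-05).

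The 4 TIMP3 probe sets differed in direction at 24 hours. Besides the main one, 2 were called higher in HFM (0.83 and 0.26), and these 3 were called lower at 12 hours. The dimmest was 2.93, 3.10 and 3.06 in HFM, against 4.58, 4.62 and 4.39 in GM at 24 hours, and 3.95, 3.88 and 3.77 in HFM, against 5.14, 5.15 and 4.95 in GM at 12 hours. All 6 HFM arrays of that probe set were under the floor of log2 4 and all 6 GM arrays above it, so it passed only through GM. Its HFM arrays lay below its GM arrays at both times, and the size of that difference is not well measured. With the mean of the 4 probe sets as the level of the gene, the 24-hour difference was 0.00 (0.0047, adjusted p = 0.95). Where the probe sets lie along the TIMP3 transcript was not analysed here.

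**Figure D2:**
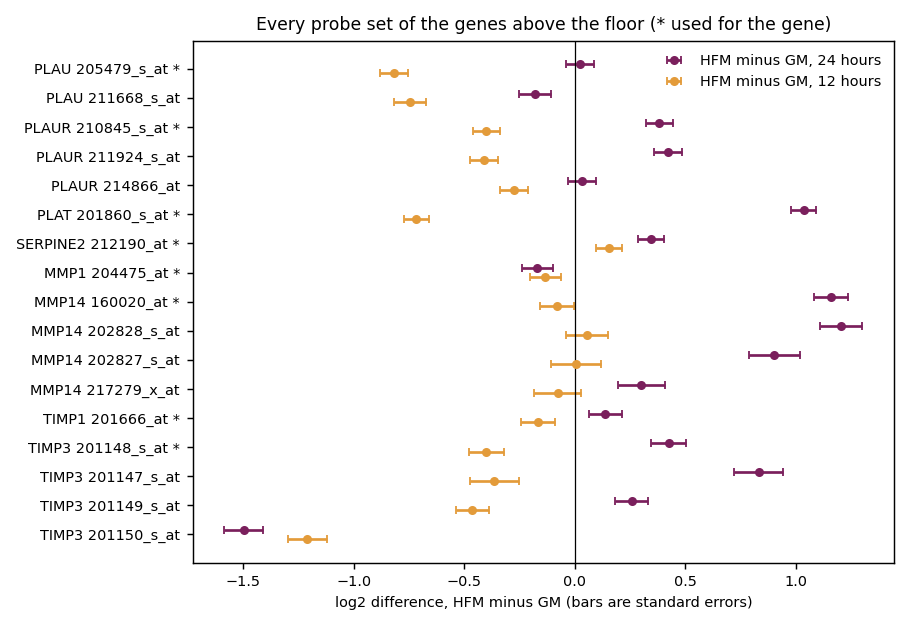
Log2 difference (HFM minus GM) for the 17 probe sets that passed the floor, with 24 hours above 12 hours in each row. Bars are standard errors and the asterisk marks the probe set used for the gene. At 24 hours 11 of the 17 were called higher and 3 lower, the lowest being the TIMP3 probe set whose HFM arrays were under the floor, and at 12 hours 1 was called higher and 10 lower. Of all 24649 probe sets tested, 14509 were called at 24 hours and 14665 at 12 hours, counting either direction. By gene, 20.6% of all were called higher and 37.5% lower at 24 hours, and 28.9% and 33.0% at 12 hours. The 17 probe sets come from the 8 tested genes, so those of 1 gene are not separate results. The MMP1 value at 24 hours turned to 0.01 with arrays centred on their medians.

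Over the 17 probe sets that passed the floor, the difference between the times was called and positive for 15 and negative for 0 in limma's test of all 24649 probe sets above it. The 2 that were not called were those of MMP1 (adjusted p = 0.76) and the dimmest of TIMP3. Of all 24649 probe sets, 12989 were called for this comparison, counting either direction. By gene, 19.4% of all were called positive and 33.4% negative. Probe sets of 1 gene are not separate results.

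Further measurements bear on the medium differences. Subtracting from every array the median over the 13130 tested genes added 0.18 to every 24-hour difference and moved the share of called genes that were higher in HFM to 58.6%, against 35.4% as deposited. On that scale the 24-hour differences were 1.34 for MMP14, 1.22 for PLAT, 0.60 for TIMP3, 0.56 for PLAUR and 0.53 for SERPINE2, PLAU (0.20) and TIMP1 (0.32) were called higher as well, and MMP1 was not called. The same step added 0.20 to the difference between the times, for which the positive share of calls was 61.8% centred and 36.8% as deposited, and 0.22 to the change with time in HFM. At 12 hours it moved values by -0.02, and MMP1 (-0.16) and TIMP1 (-0.19) were then called lower.

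Within the class of high hybridisation controls, HFM at 12 hours is 1 array. That array stood at -0.71 from the GM mean for PLAU, -0.34 for PLAUR, -0.71 for PLAT, 0.18 for SERPINE2 and -0.25 for TIMP3, against -0.87, -0.43, -0.72, 0.14 and -0.47 for the mean of HFM replicates 2 and 3 in the low class. The direction was the same in both for these 5 genes. With a term for the class the 12-hour difference is that of this 1 array, so the term gives no replicated check. For MMP14 (0.06 against -0.15) and TIMP1 (-0.0041 against -0.25) the 2 comparisons differed. All 6 arrays at 24 hours are in the low class.

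**Figure D3:**
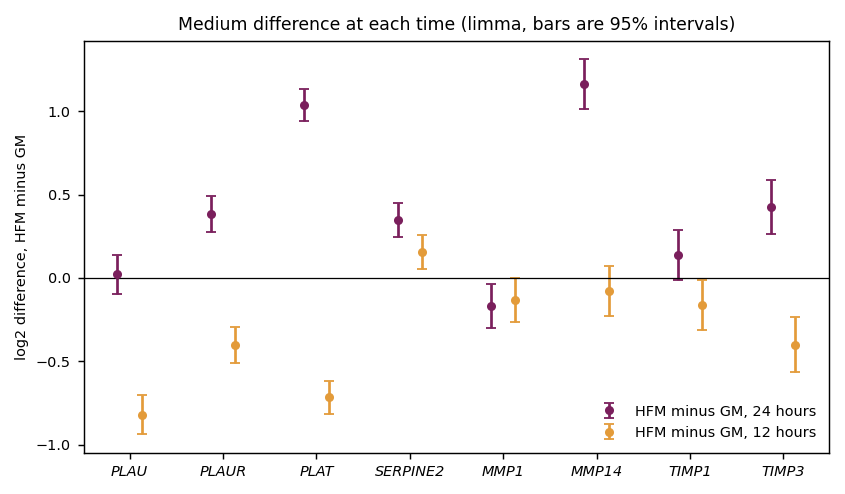
Log2 difference (HFM minus GM) of the 8 tested genes at 24 hours (left point of each pair) and 12 hours (right point), with 95% intervals from limma. PLAT was at 1.04 at 24 hours and at -0.72 at 12 hours, and SERPINE2 was above 0 at both times. MMP1, at -0.17 at 24 hours, turned to 0.01 with arrays centred on their medians.

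The change with time was taken within each medium, as 24 hours minus 12 hours. In GM 6 of the 8 genes were lower at 24 hours (PLAUR -0.75, TIMP1 -0.65, TIMP3 -0.56, PLAU -0.47, MMP14 -0.40 and PLAT -0.22) and none was higher, with SERPINE2 (-0.02) and MMP1 (-0.08) not called. Among all genes 69.9% were called for this comparison, 40.5% lower and 29.4% higher at 24 hours, and 4.27% with at least 2-fold, which 0 of the 8 reached. Arrays of the times did not overlap in GM for 6 of the 8 genes, as for 78.9% of all genes. In HFM 5 genes were higher at 24 hours (PLAT 1.53, MMP14 0.84, PLAU 0.37, TIMP3 0.27 and SERPINE2 0.17) and TIMP1 was lower (-0.35), where 63.1% of all genes were called, 20.1% higher and 43.1% lower. PLAT was the 1 of the 8 past 2-fold in HFM, as 7.65% of all genes were with a call, and the times did not overlap for 6 of the 8, as for 65.9% of all genes. The adjusted p of these calls was at most 0.0080 in HFM and at most 0.00093 in GM. PLAT thus changed with time by 2.89-fold upward in HFM and 1.17-fold downward in GM. TIMP1 was the 1 gene of the 8 lower at 24 hours in both media. Other probe sets limit some rises in HFM. The second PLAU probe set changed by 0.05 (adjusted p = 0.54). The other TIMP3 probe sets gave 0.47 (called), 0.13 (adjusted p = 0.12) and, for the dimmest, -0.84 (called, with its HFM arrays under the floor). With the mean of the probe sets, TIMP3 (0.0069, adjusted p = 0.92) and SERPINE2 (0.03, adjusted p = 0.71) were not called.

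The class of hybridisation controls changes with time in GM, where all 3 arrays at 12 hours are high and all 3 at 24 hours low. Class and time cannot be told apart within GM, and a term for the class takes its size from HFM replicate 1 against replicates 2 and 3 at 12 hours alone. With that term the change in GM was -0.66 for PLAUR, -0.41 for TIMP1, -0.34 for TIMP3, -0.31 for PLAU, -0.21 for PLAT and -0.19 for MMP14, values that rest on that 1 array. In HFM the PLAUR value of 0.03 (adjusted p = 0.61) became -0.28 (adjusted p = 0.00081) when its probe sets of the shared types were left out, and 0.25 (adjusted p = 0.00025) with arrays centred.

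The levels of the 4 groups can be ordered for each gene. From low to high, PLAUR and TIMP3 ran GM at 24 hours, HFM at 12 hours, HFM at 24 hours and GM at 12 hours, and in both genes the HFM groups overlapped while the other neighbours did not. MMP14 ran GM at 24 hours, HFM at 12 hours, GM at 12 hours and HFM at 24 hours, with an overlap between the middle groups. PLAT ran HFM at 12 hours, GM at 24 hours, GM at 12 hours and HFM at 24 hours without overlap. SERPINE2 had the GM groups lowest, overlapping, then HFM at 12 hours and HFM at 24 hours. TIMP1 had the 24-hour groups lowest, GM below HFM, then HFM at 12 hours, which overlapped GM at 12 hours. The group means spanned 1.53 log2 units for PLAT, 1.16 for MMP14, 0.82 for PLAU, 0.75 for PLAUR, 0.65 for TIMP1, 0.56 for TIMP3, 0.35 for SERPINE2 and 0.25 for MMP1, and the largest SD of any group of these 8 genes was 0.14.

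The genes with the most similar pattern were taken as those with the highest Pearson correlation of log2 level over the 12 arrays among the tested genes. These 12 points share 4 groups and 1 processing. The closest to PLAU were EPHA2, an ephrin receptor kinase (r = 0.980), and IER3, an early response gene (0.978). The closest to PLAUR were HMGA1, a chromatin protein (0.995), and POMZP3 (0.990), and those to PLAT were ITPRIP (0.988) and PFKFB3, a regulator of glycolysis (0.985). SERPINE2 was closest to INSR, the insulin receptor (0.992), and NFIL3, a transcription factor (0.979). MMP14 was closest to VGLL4, a transcription cofactor (0.991), and PIP4P1 (0.990). TIMP1 was closest to MALL (0.993) and NELFCD (0.991), TIMP3 to TBC1D10A (0.977) and NPM3 (0.975), and MMP1 to DZANK1 (0.945) and MYORG (0.937).

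Other genes of the plasminogen pathway were read from 14 listed genes on the array, of which 9 passed the floor. At 24 hours 2 were higher in HFM, 1 was lower and 6 were not called, where 58.1% of all genes were called, 20.6% higher and 37.5% lower. The endocytic receptor LRP1, which clears activator and inhibitor complexes, differed by 0.61 (adjusted p = 8.4e-06), and IGF2R, which binds the urokinase receptor and plasminogen, by 0.45 (adjusted p = 5.2e-06). F12, coagulation factor XII, was lower in HFM at both times (-0.61 at 24 hours and -0.60 at 12 hours). At 12 hours PLGRKT, a plasminogen receptor (0.32), and ANXA2, a subunit of another (0.19), were higher, and IGF2R (-0.20) and F12 were lower, with 5 not called, where 61.9% of all genes were called, 28.9% higher and 33.0% lower. The differences of LRP1 (0.77) and IGF2R (0.64) between the times were called, as was that of PLGRKT (-0.44). LRP1 at 12 hours (-0.16, adjusted p = 0.052) was called without HFM replicate 2 at 12 hours (-0.21) or HFM replicate 2 or 3 at 24 hours. Without HFM replicate 1 at 12 hours, PLGRKT (-0.11) and ANXA2 (0.08), not called otherwise, were called at 24 hours. With arrays centred, 5 of the 9 were higher and 1 lower at 24 hours. PLG, the gene of plasminogen itself, was at most 3.56 on any array and was not tested.

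Other metalloproteinases and their regulators formed a list of 27 genes, of which 16 passed the floor. At 24 hours 8 were higher in HFM, 3 lower and 5 not called, with a median log2 difference of 0.23, against 20.6% of all genes higher, 37.5% lower and a median of -0.08. TFPI2, a serine protease inhibitor of the matrix that blocks plasmin, rose most (0.79, adjusted p = 4.1e-06). TIMP2, the inhibitor that bridges the MMP14 enzyme and pro-MMP2, was higher at 24 hours (0.40, adjusted p = 2.8e-05) and lower at 12 hours (-0.21, adjusted p = 0.0037), a difference between the times of 0.61 (adjusted p = 2.4e-05). Its log2 level at 24 hours was 11.38, 11.46 and 11.42 in HFM, against 10.95, 11.08 and 11.04 in GM, and at 12 hours it was 10.92, 10.88 and 10.84 in HFM, against 11.12, 11.10 and 11.06 in GM. TIMP2 thus had its highest arrays in HFM at 24 hours and its lowest in HFM at 12 hours, without overlap of the media at either time. Without probe sets of the shared types, its 12-hour call was lost (-0.13, adjusted p = 0.062).

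MMP9, gelatinase B, was higher in HFM at 24 hours (0.49) and at 12 hours (0.38), and so was RECK, a membrane-anchored inhibitor (0.31 and 0.25), although another RECK probe set was called at -1.78 at 24 hours. At 12 hours 4 genes of the list were higher, 6 lower and 6 not called, where 28.9% of all genes were higher and 33.0% lower. MMP16, a membrane-type metalloproteinase, was higher at 12 hours (0.80) and lower at 24 hours (-0.52), and another of its probe sets was called the other way at each time (-0.41 at 12 hours and 0.50 at 24 hours). The largest falls at 12 hours were those of MMP24 (-0.61), MMP17 (-0.45) and MMP28 (-0.39), 1 other probe set of MMP28 being called higher (0.35), and the MMP28 call was lost without GM replicate 1 (-0.33, adjusted p = 0.074). MMP24 (-0.23) and CD44, the hyaluronan receptor (-0.20), were lower at 24 hours, both calls were lost with arrays centred (-0.05 and -0.02), and 9 of 10 other CD44 probe sets were called higher (0.52 to 2.00). The CD44 call was also lost when any 1 of 8 arrays was left out (adjusted p between 0.053 and 0.13), namely the 3 GM arrays of each time and HFM replicates 1 and 3 at 24 hours. TFPI2 at 12 hours (0.22, adjusted p = 0.030) lost its call without GM replicate 1 or 3 or HFM replicate 1 of that time (0.13 to 0.24, adjusted p between 0.052 and 0.11). FURIN, a proprotein convertase that activates the MMP14 enzyme, was called at neither time (0.11 at 24 hours and -0.07 at 12 hours), but with arrays centred it was higher at 24 hours (0.29, adjusted p = 0.022), and MMP3 was at most 2.67 and not tested.

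Of 30 other matrix proteases and their inhibitors on the array, 23 passed the floor. At 24 hours 11 were higher in HFM, 2 lower and 10 not called, where 58.1% of all genes were called, 20.6% higher and 37.5% lower. ADAM17, a sheddase of membrane proteins that TIMP3 inhibits, rose by 1.17 on the log2 scale (adjusted p = 1.3e-08). Its log2 level at 24 hours was 8.94, 8.93 and 8.90 in HFM, against 7.64, 7.81 and 7.81 in GM, while at 12 hours it was 7.79, 7.85 and 7.78 in HFM, against 7.54, 7.48 and 7.63 in GM (0.26, adjusted p = 0.0030). The media did not overlap at either time, and the ADAM17 difference was larger at 24 hours by 0.91 (adjusted p = 3.7e-06). ADAM10, another sheddase, was higher at both times (0.55 and 0.49), and ADAM9 was higher at 24 hours (0.50, adjusted p = 0.024). The ADAM9 call was lost without GM replicate 1 or 2 or HFM replicate 2 or 3 of that time (0.44 to 0.49, adjusted p between 0.059 and 0.079). At 12 hours ADAM9 (0.22, not called) read 10.95, 11.74 and 11.74 in HFM, and without HFM replicate 1 the difference was 0.48 (adjusted p = 0.00012).

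ADAMTS6 was lower in HFM at 24 hours (-0.76) and higher at 12 hours (0.40), and ADAMTS12 was lower at 24 hours (-0.38, adjusted p = 0.021). The ADAMTS12 call was lost with arrays centred and without GM replicate 2 or HFM replicate 2 or 3 of that time (-0.36 to -0.28, adjusted p between 0.061 and 0.092). At 12 hours 5 genes of this list were higher, 7 lower and 11 not called, where 61.9% of all genes were called, 28.9% higher and 33.0% lower. CTSK, cathepsin K (0.72), and ADAMTS1, a protease of proteoglycans (0.56), were higher at 12 hours and not called at 24 hours (0.02 and 0.06), and both differences between the times were called (-0.70 and -0.50), although with the mean of its probe sets ADAMTS1 rose at 24 hours (1.16) and its difference between the times was 0.66. HTRA1, a secreted serine protease (-0.47), and HPSE, heparanase (-0.35), were lower at 12 hours. ADAMTS2, a procollagen peptidase counted among the 7, passed the floor through GM at 12 hours (4.31, 4.13 and 4.09, against 3.29, 3.74 and 3.94 in HFM at 12 hours), so the size of its difference is not well measured. CTSK in GM at 12 hours (4.41, 4.39 and 4.32) and ADAMTS12 in HFM at 24 hours (4.48, 4.19 and 4.04) also read near the floor. HPSE was higher at 24 hours (0.23, adjusted p = 0.015), which was not called without HFM replicate 2 (0.21, adjusted p = 0.058), and its other probe set was called higher at 12 hours (0.18). HTRA1 at 24 hours (-0.14, not called) was called without HFM replicate 1 at 12 hours (adjusted p = 0.028).

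**Figure D4:**
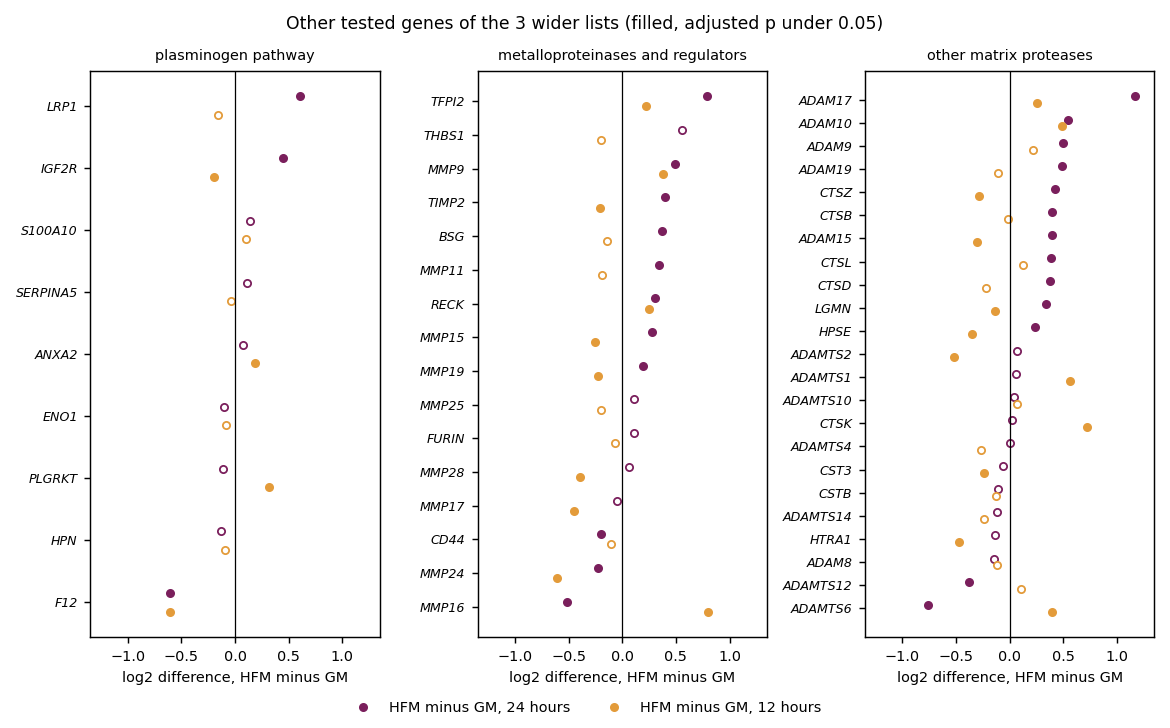
Log2 difference (HFM minus GM) of the other tested genes of the 3 wider lists (9, 16 and 23 genes), with 24 hours above 12 hours in each row. Filled points passed an adjusted p under 0.05 in limma and open points did not. ADAM17 was the highest point at 1.17 at 24 hours, and MMP16 and ADAMTS6 were below 0 at 24 hours and above 0 at 12 hours, with another MMP16 probe set going the other way.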

How the data were processed

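Each of the 12 arrays measured 1 sample of Sk-hep1 cells, and the deposited table holds 1 log2 value per probe set and array. Per the submitters' processing notes the authors used GCRMA, a method that by default models sequence-dependent background, applies quantile normalisation and gives 1 log2 value per probe set. The notes name no version. No counts or depth exist for arrays, whose number limits the precision.

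Probe sets were named from the platform annotation (41097 with 1 symbol, 1801 with several, 11777 with none, of which only the first were used), and 0 symbols changed on matching 41043 of them to RefSeq. Each gene took its probe set with the highest mean, and the 13130 genes reaching log2 4 on 3 arrays or more entered the tests. A model of 4 group means over all 12 arrays was fitted by lmFit and eBayes of limma 3.58.1 (R 4.3.3), giving 5 comparisons. Adjusted p-values are Benjamini-Hochberg over all genes, called under 0.05. The pipeline was tested on simulated data. Figures used matplotlib 3.10.9 in Python 3.11.15.

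The 9 genes and the wider lists were chosen with earlier results of these data known. Besides the 9, the text names the called genes of each wider list with the 3 largest rises and 3 largest falls at a time, the partners TIMP2, MMP3, MMP9, PLG and FURIN, and the 2 most correlated genes of each member. The 2 classes of hybridisation controls were split at the largest gap that left at least 3 arrays on each side, a rule chosen after seeing the data, since the plain largest gap set 1 array apart. The main model did not pair arrays by replicate number. Same-numbered arrays deviated together at r from -0.17 to 0.25, and in no comparison were all above 0.1. With time in HFM the values were all positive (0.21, 0.15 and 0.05), so these data do not settle whether the numbers pair the arrays. Alternatives were other floors, other uses of a gene's probe sets, 2 scalings, a robust trended eBayes, the compared groups alone, a replicate block, a term for the class, a required 2-fold change and the omission of single arrays.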

Additional observations from a re-analysis of the deposited data

Results flagged for a closer look

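The difference between the times in the HFM effect (HFM minus GM at 24 hours minus that at 12 hours, log2, limma) was called for 7 of the 8 tested genes: PLAU 0.84, PLAUR 0.78, PLAT 1.75, SERPINE2 0.19, MMP14 1.24, TIMP1 0.30 and TIMP3 0.82. Among all genes 52.8% were called for this comparison, 19.4% positive and 33.4% negative. The calls of SERPINE2 and TIMP1 are those that do not hold with 1 array left out.

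Of the 25 other genes named, 16 had a called difference between the times, where 52.8% of all genes did, and most of the 25 were named for their large changes at 1 of the times. It was positive for ADAM17 (0.91), LRP1 (0.77), IGF2R (0.64), TIMP2 (0.61), HPSE (0.58), TFPI2 (0.56), MMP17 (0.40), MMP24 (0.38) and HTRA1 (0.34). That of ADAMTS2 was 0.59, but this gene passed the floor through GM at 12 hours and its other groups averaged 3.65 to 3.97, under log2 4. The difference was negative for MMP16 (-1.32), ADAMTS6 (-1.16), CTSK (-0.70), ADAMTS1 (-0.50), ADAMTS12 (-0.49) and PLGRKT (-0.44). The calls were lost for HTRA1 without any 1 of 5 arrays (adjusted p between 0.052 and 0.059), for ADAMTS12 without any 1 of 8 (0.055 to 0.086) and for ADAMTS2 without any 1 of 2 (0.051 to 0.052). With the mean of the probe sets, ADAMTS1 reversed (0.66) and MMP16 lost its call (-0.16, adjusted p = 0.070). HPSE reversed without shared probe set types (-0.089), and ADAMTS12 lost its call with arrays centred (-0.29, adjusted p = 0.14).

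Outside the gene measurements, a control probe set for ribosomal RNA, AFFX-M27830_5, was higher in HFM than in GM at 24 hours by 1.66 log2 units (12.85 ± 0.03 in HFM and 11.19 ± 0.06 in GM, SD, n = 3), and another ribosomal control, AFFX-M10098_M, was 10.32 ± 0.09 in HFM and 12.62 ± 0.03 in GM. Their part in the results was not tested.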

How the results depend on the processing

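Over the 5 comparisons and their alternatives, the 932 values of the 8 tested genes kept direction and side of the threshold in 855 cases, lost the call in 52, gained one in 23 and reversed in 2. Counts of genes called stayed within 1.5 times except with every probe set tested (of 24649: 14665 at 12 hours, 14509 at 24 hours, 12989 for the difference between the times, 16399 with time in GM and 15541 with time in HFM) and with a 2-fold minimum (286, 983, 1045, 561 and 1004 genes, and 0, 2, 2, 0 and 1 of the 8). Without probe sets of the shared types only 5 of the 8 genes could be tested, and 2, 3, 4 and 3 were called at 12 hours, at 24 hours, between the times and with time in GM. Repeated quantile normalisation called 8 at 12 hours.

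Leaving out 1 array gave 5 to 8 of the 8 called at 12 hours (8 without HFM replicate 1), 5 to 7 at 24 hours, 5 to 7 between the times, and 6 with time in each medium. Genes called ran from 7169 to 8975, 6919 to 8731, 6204 to 8159, 8415 to 10120 (GM) and 7618 to 8458 (HFM).

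With the replicate block, 7, 6, 7, 6 and 6 of the 8 were called. At 12 hours MMP1 (adjusted p = 0.049) and TIMP1 (0.036) gained a call, and no other call of the 8 changed. For each of the 3 HFM arrays at 24 hours, the best match among the HFM arrays at 12 hours had the same number. No other comparison had this for all 3 arrays. The match was taken in 1 direction only and is a hint from the data and not the design.

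These values reversed. With arrays centred they were MMP1 at 24 hours (0.0090), and ANXA2 (0.21) and MMP9 (0.014) with time in HFM. Without shared probe set types they were PLAUR with time in HFM (-0.28), ANXA2 (-0.16), MMP28 (0.22) and HPSE (0.18) at 12 hours, and HPSE between the times (-0.089) and with time in HFM (-0.21). With the mean of the probe sets they were, at 12 hours, MMP28 (0.0025) and CD44 (0.23), at 24 hours RECK (-0.17) and CD44 (0.68), between the times RECK (-0.33), CD44 (0.46), ADAMTS1 (0.66) and ADAM10 (-0.23), and with time in HFM MMP16 (0.17), RECK (-0.12), CD44 (0.66) and ADAMTS1 (0.74). With the class term they were ADAM9 at 12 hours (-0.31) and, with time in GM, CD44 (-0.27) and ADAM9 (-0.16). With that term 1 array alone, HFM replicate 1, links the media at 12 hours. The cause of the reversals was not tested. Signals near the floor, as of MMP1, MMP2, CTSK, ADAMTS2, ADAMTS12 and the dimmest TIMP3 probe set, limit what can be read.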
